A study of Mus musculus with 16 samples.

Results

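The acetylation of histone H3 at lysine 27 (H3K27ac) in arid4b-delta mesoderm was compared with that in WT endoderm, at promoters and distal regions that carried no H3K27ac peak in WT mesoderm. Members were chosen from 3 peak lists: a promoter or distal region counted as shared when it had a peak in the arid4b-delta mesoderm list and in the WT endoderm list and none in the WT mesoderm list. Of 21887 protein-coding promoters, 481 were shared, which is 2.2% of all promoters, and of 11814 distal peaks of arid4b-delta mesoderm, 2159 were shared, which is 18.3%. The 481 promoters rested on 441 distinct arid4b-delta mesoderm peaks, because neighbouring genes can share one.

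The study profiled mouse embryonic stem cells of the line CJ9 for the marks H3K27ac, H3K4me3 and H3K27me3 by ChIP-seq. The groups used here were arid4b-delta cells directed to mesoderm, arid4b-delta cells directed to endoderm, WT cells directed to endoderm and WT cells directed to mesoderm, all taken after 5 days and fixed for 8 min. Each group had 1 library per mark and no replicate, so no test between groups was possible and every difference below is a difference between single libraries. The labels leave unsaid what stretch of Arid4b is missing, whether the mutant is 1 clone, or how the cells were directed to each lineage.

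H3K27ac marks active promoters and active enhancers, and at enhancers it separates elements in use from those that are only primed. Acetyl groups are removed from histones by deacetylases, among them those of the Sin3-HDAC corepressor complex, of which the Arid4b protein is a subunit. In the early embryo, pluripotent epiblast cells are epithelial, and cells that become mesoderm or endoderm pass through the primitive streak under Nodal, Wnt and FGF signals. Cells on the way to mesoderm lose epithelial junctions there.

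The 4 H3K27ac lists held 22701 peaks in arid4b-delta mesoderm, 35806 in arid4b-delta endoderm, 14167 in WT endoderm and 12450 in WT mesoderm. A promoter, meaning the 1000 bp either side of a gene start, was marked at 7038 genes in arid4b-delta mesoderm, 5860 in arid4b-delta endoderm, 5957 in WT endoderm and 6624 in WT mesoderm. A peak list gives no sequencing depth, so the part of list length in the counts below cannot be measured directly. In bulk chromatin, a mark in fewer cells and a weaker mark in each cell cannot be told apart. Of 7 mesoderm markers, none had promoter H3K27ac in arid4b-delta mesoderm, arid4b-delta endoderm or WT endoderm, against 5 in WT mesoderm, namely T, Tbx6, Pdgfra, Foxc1 and Twist1. The lists labelled endoderm did not carry endoderm markers: Sox17, Foxa2, Gata4, Gata6, Cxcr4 and Hhex lacked promoter H3K27ac in all 4 lists, and only Epcam of the 7 was marked, in all 4. Of 7 pluripotency markers, 6 were marked in arid4b-delta mesoderm, 5 in arid4b-delta endoderm, 6 in WT endoderm and 2 in WT mesoderm. None of 7 fibroblast markers, chosen for feeder cells, was marked in any list. The promoter of Arid4b itself had H3K27ac in every list, with a fold enrichment of 29.3 in arid4b-delta mesoderm, 20.2 in arid4b-delta endoderm, 16.4 in WT endoderm and 22.8 in WT mesoderm, and a mark at a promoter does not check a deletion elsewhere in the gene.

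Promoter sequences of 5 shared genes follow, 250 bases before to 50 after an annotated start, from RefSeq on build GRCm38.p6. They are shown because Cldn6, Spint2 and Elf3 stand for the epithelial genes and Tdgf1 for the pluripotency genes that carried the shared mark, and Tmem154 had the strongest shared promoter. In each, peaks of both arid4b-delta mesoderm and WT endoderm overlapped the printed bases by at least 1 bp, so a marked motif need not lie under a peak. At Spint2 the strongest peak of each list covered only printed bases after the start. The Spint2 GC boxes, all before the start, lay outside these peaks. Capitals mark the motifs found: the GC box GGGCGG (read as CCGCCC on the other strand), the octamer ATGCAAAT and the Grainyhead core AACNNGTT. The Cldn6 promoter is chr17:23679115-23679414 on the plus strand, Spint2 is chr7:29281928-29282227 on the minus strand, Elf3 is chr1:135258423-135258722 on the minus strand, Tdgf1 is chr9:110946109-110946408 on the minus strand and Tmem154 is chr3:84665942-84666241 on the plus strand.
Cldn6: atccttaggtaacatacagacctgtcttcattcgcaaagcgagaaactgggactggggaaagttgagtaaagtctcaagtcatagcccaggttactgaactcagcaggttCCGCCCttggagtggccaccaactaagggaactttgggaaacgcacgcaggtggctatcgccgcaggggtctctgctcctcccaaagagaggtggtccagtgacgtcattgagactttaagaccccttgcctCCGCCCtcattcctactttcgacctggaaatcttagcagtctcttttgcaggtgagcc
Spint2: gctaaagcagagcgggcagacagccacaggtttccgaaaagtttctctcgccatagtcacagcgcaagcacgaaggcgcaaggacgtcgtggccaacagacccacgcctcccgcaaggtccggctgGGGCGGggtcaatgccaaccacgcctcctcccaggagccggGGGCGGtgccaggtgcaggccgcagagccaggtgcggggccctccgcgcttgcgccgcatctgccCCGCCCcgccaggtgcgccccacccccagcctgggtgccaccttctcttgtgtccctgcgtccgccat
Elf3: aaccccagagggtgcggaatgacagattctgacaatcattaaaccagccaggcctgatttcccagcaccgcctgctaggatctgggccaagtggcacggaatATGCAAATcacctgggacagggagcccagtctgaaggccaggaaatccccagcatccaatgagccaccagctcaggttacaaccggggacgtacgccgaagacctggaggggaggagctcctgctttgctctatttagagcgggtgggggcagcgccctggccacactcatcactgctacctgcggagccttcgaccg
Tdgf1: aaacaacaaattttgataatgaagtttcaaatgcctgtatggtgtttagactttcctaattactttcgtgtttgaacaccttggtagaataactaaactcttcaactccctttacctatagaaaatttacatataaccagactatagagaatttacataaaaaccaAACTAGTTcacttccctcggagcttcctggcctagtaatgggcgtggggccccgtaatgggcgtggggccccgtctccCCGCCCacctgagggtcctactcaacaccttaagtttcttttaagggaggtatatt
Tmem154: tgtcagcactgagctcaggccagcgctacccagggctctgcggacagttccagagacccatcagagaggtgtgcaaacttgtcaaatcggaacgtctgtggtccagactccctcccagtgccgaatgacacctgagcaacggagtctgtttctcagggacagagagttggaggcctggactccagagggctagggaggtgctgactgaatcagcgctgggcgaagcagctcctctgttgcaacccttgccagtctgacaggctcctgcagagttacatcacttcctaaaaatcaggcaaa
The Tdgf1 window held 1 Grainyhead core, 84 bases before the start, and 1 GC box 6 bases before it. The Cldn6 window held 2 GC boxes, the Spint2 window 3, the Elf3 window 1 octamer 148 bases before the start, and the Tmem154 window none of the motifs searched.

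Both strands of the 394 shared promoters with a RefSeq sequence were searched for 9 motifs, beside all 17492 promoters with one. The GC box lay in 66.8% of shared promoters (95% interval 61.9 to 71.4), against 49.2% of all promoters and 74.8% of those marked in all 3 lists. The ETS motif CCGGAAG lay in 20.3% of shared promoters, against 12.9% of all. Shared promoters had a median GC content of 60.3% and 19 CpG per 300 bases, against 56.3% and 13 over all promoters, and both of these motifs contain a CpG. The octamer bound by POU factors lay in 1.02% of shared promoters against 1.90% of all, and the SOX motif CATTGT in 9.90% against 12.8%. The TCF/LEF motif ATCAAAG (3.30% against 3.74%), the T-box motif TCACACCT (0.761% against 1.35%), the GATA motif AGATAA (7.87%, interval 5.41 to 10.98, against 11.2%), the E-box CACGTG (9.64% against 8.91%) and the Grainyhead core (4.06% against 4.71%) were also counted in shared and in all promoters. A match is a run of letters in this window and not evidence of binding.

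The first question was how much of the acetylation that arid4b-delta mesoderm had and WT mesoderm lacked was also present in WT endoderm. Promoters listed in arid4b-delta mesoderm and not in WT mesoderm are called gained here, a name for list membership only. There were 1222 gained promoters (5.58% of all), and 481 of them, 39.4% (exact 95% interval 36.6 to 42.2, counting error only), were marked in WT endoderm. Among promoters marked in both mesoderm lists the share in WT endoderm was 85.6%, and among promoters marked in neither it was 1.83%. The reverse set, the 808 promoters marked in WT mesoderm and not in arid4b-delta mesoderm (3.69% of all), had 242 members in WT endoderm, which is 29.95% (26.8 to 33.2). In the full lists the gained promoters thus met WT endoderm more often than the lost ones by list membership. The same shares were read with each list reduced to its 12450 peaks of highest fold. They were then 46.2% (42.03 to 50.3) for gained and 39.98% (37.6 to 42.4) for lost promoters. With only the upper 50% of each list they were 33.1% (30.6 to 35.7) and 30.2% (26.7 to 33.8). With only peaks of at least 500 bp they were 26.7% (23.3 to 30.4) and 20.8% (17.9 to 24.1). The order stayed, but the intervals overlapped in each of these settings. Both comparisons use the same WT mesoderm and arid4b-delta mesoderm lists. A promoter missed in WT mesoderm enters the shared set through both of its conditions.

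Seen from WT endoderm, 738 promoters were marked there and not in WT mesoderm (3.37% of all), and 481 of them, 65.2% (61.6 to 68.6), were marked in arid4b-delta mesoderm. The shared promoters made up 6.83% of the promoters marked in arid4b-delta mesoderm and 8.07% of those marked in WT endoderm. WT endoderm promoters marked in 1 mesoderm list alone numbered 481 with arid4b-delta mesoderm and 242 with WT mesoderm. This order depended on list length: with each list reduced to its 12450 peaks of highest fold, 265 promoters went with arid4b-delta mesoderm alone and 658 with WT mesoderm alone. With only the upper 50% of each list the counts were 447 and 204, and with only peaks of at least 500 bp they were 167 and 144. The 265 promoters had to be among the 481, because the WT mesoderm list already held 12450 peaks and only the other lists were cut. Of the 447 promoters, 121 were among the 481, and of the 167, 24 were.

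The distal regions gave the larger contrast in counts, and its direction did not turn with total list length. The arid4b-delta mesoderm list, however, held 11814 distal peaks and the WT mesoderm list 3330. A distal peak is one over 2500 bp from any annotated start or end of a protein-coding gene. Of the 10039 distal arid4b-delta mesoderm peaks that no WT mesoderm peak overlapped, 2159, or 21.5% (20.7 to 22.3), overlapped a WT endoderm peak. Of the 1375 distal WT mesoderm peaks that no arid4b-delta mesoderm peak overlapped, 188, or 13.7% (11.9 to 15.6), did so. Of WT endoderm's own 5272 distal peaks, 2447 (46.4%) overlapped arid4b-delta mesoderm peaks and no WT mesoderm peak, and 181 overlapped WT mesoderm peaks and no arid4b-delta mesoderm peak. With lists of equal length these counts were 1639 and 291, with the upper 50% of each list 1038 and 54, and with peaks of at least 500 bp 535 and 29. Equal total length did not make the distal parts equal. In that setting 3944 distal arid4b-delta mesoderm peaks had no WT mesoderm peak, against 1846 the other way. The part of distal peak number in these counts was not tested.

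**Figure D1:**
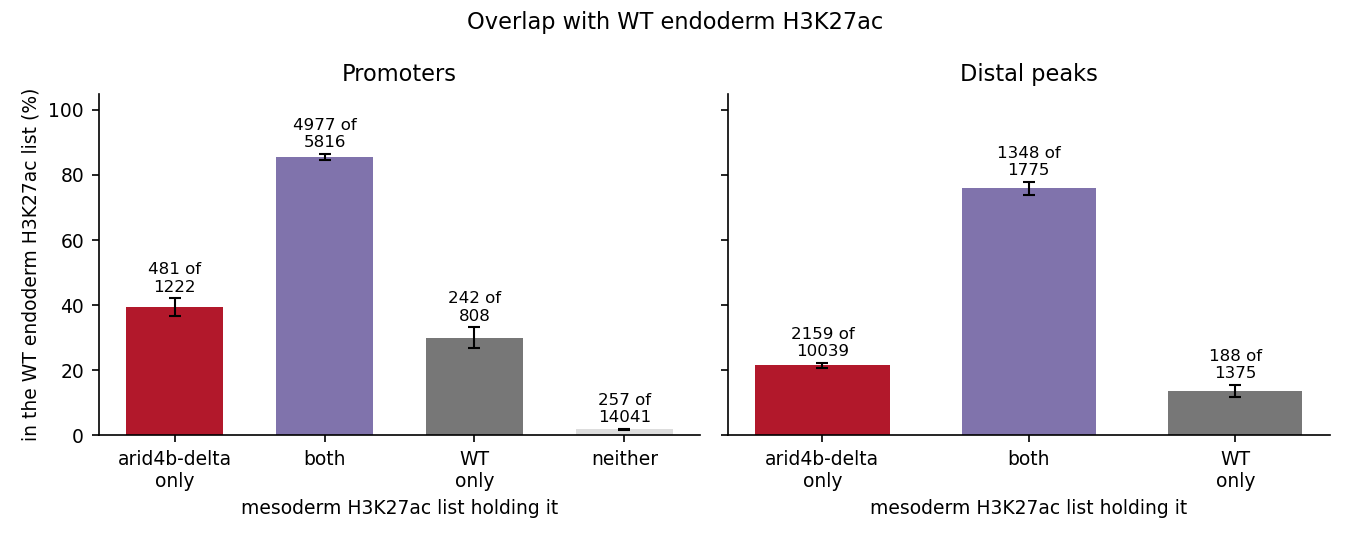
Percent of promoters (left) and of distal peaks (right) that were also in the WT endoderm H3K27ac list, by the mesoderm list that held them; bars are shares, lines exact 95% intervals, and numbers the counts. Promoters in arid4b-delta mesoderm only reached 39.4% and distal peaks 21.5%, against 29.95% and 13.7% for those in WT mesoderm only.

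The shared distal peaks were among the stronger gained peaks. A match by 1 bp in a second list of called peaks favours strong and long peaks in advance. The orders by fold and length below, at distal peaks and at promoters, are therefore descriptive only. When the gained distal peaks were ordered by the authors' fold enrichment within the arid4b-delta mesoderm list and divided into 4 equal groups, 7.81%, 11.8%, 16.7% and 49.8% overlapped WT endoderm, from the lowest group to the highest. The median fold was 8.17 and the median length 366 bp for shared distal peaks, against 5.98 and 205 bp for peaks of arid4b-delta mesoderm only and 10.8 and 489 bp for peaks found in all 3 lists. At promoters the median of the highest fold in arid4b-delta mesoderm was 7.51 for shared genes, 6.35 for genes marked there only and 12.2 for genes marked in all 3 lists. Within the WT endoderm list it was 6.36 for shared genes, 5.95 for genes marked there only and 9.67 for genes in all 3 lists. In both lists the median of the shared promoters lay between that of promoters marked in 1 list only and that of the common ones.

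Members had no WT mesoderm peak by their choice, and the distance to the next one was read beyond that. A WT mesoderm peak lay within 1000 bp of the promoter window at 13 of the 481 genes (2.70%) and within 5000 bp at 43 (8.94%), against 2.43% and 7.29% of promoters marked in arid4b-delta mesoderm only. Of the shared distal peaks, 312 (14.5%, 13.0 to 16.0) had one within 1000 bp and 463 (21.4%) within 5000 bp, against 5.65% (5.15 to 6.18) and 11.8% of distal peaks of arid4b-delta mesoderm only. At 431 of the 481 promoters an arid4b-delta mesoderm peak overlapped a WT endoderm peak, and at the other 50 both lists marked different stretches of the same promoter window or different annotated starts.

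The group with most shared members was that of epithelial junctions and keratins, where 10 of 40 genes had a shared promoter, against the 2.2% of all promoters given above. The gene lists were chosen with earlier results of these data known, so contrasts between lists, here and below, are descriptive only. All 10 of its gained promoters were marked in WT endoderm, where 39.4% of all gained promoters were. In this list 20 genes were marked in arid4b-delta mesoderm, 21 in arid4b-delta endoderm, 24 in WT endoderm and 10 in WT mesoderm, and no gene was marked in WT mesoderm and not in arid4b-delta mesoderm. The 10 shared genes were Cldn4, Cldn6, Cldn7 and Ocln (tight junction proteins), Spint2 (an inhibitor of epithelial serine proteases), Rab25 (a GTPase of apical recycling), Crb3 (an apical polarity protein), Krt18 (a keratin), and the epithelial transcription factors Elf3 and Grhl2. Marveld3, Llgl2, Krt8 and Pkp2 were marked in WT endoderm and in neither mesoderm list.

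Cldn6 (gene ID 54419, chr17:23679348-23682446) had a promoter fold of 18.5 in arid4b-delta mesoderm, 9.83 in arid4b-delta endoderm and 12.4 in WT endoderm, and no peak in WT mesoderm. Spint2 (gene ID 20733, chr7:29256330-29282059) had folds of 17.3, 12.7 and 13.9 in the same order, and again no WT mesoderm peak. These are the authors' fold enrichments per peak, and they rank peaks within a list but do not compare libraries. In arid4b-delta mesoderm the Spint2 peak ran over 613 bp, chr7:29281342-29281954, and in WT endoderm over 522 bp within those bounds. Rab25 had folds of 10.7 in arid4b-delta mesoderm, 7.51 in arid4b-delta endoderm and 7.76 in WT endoderm, and Ocln 10.97, 7.15 and 4.09, the last near the bottom of the WT endoderm list. Grhl2, which in mouse activates epithelial junction genes, had 9.15, 10.2 and 9.13. Cldn4 (7.47, 6.98 and 7.12), Cldn7 (8.19, 6.95 and 5.61) and Crb3 (6.95, 7.37 and 11.1) also had all 3 peaks. Elf3 had 7.35, 3.92 and 6.40, the middle value being near the bottom of the arid4b-delta endoderm list. Krt18 was the weakest, with 5.66 in arid4b-delta mesoderm and 4.17 in WT endoderm and no peak in arid4b-delta endoderm. None of the 10 had a peak in the promoter window in WT mesoderm, where the epithelial genes Epcam and Cdh1 did. Epcam had 20.9 in arid4b-delta mesoderm, 22.1 in arid4b-delta endoderm, 18.0 in WT endoderm and 7.81 in WT mesoderm, and Cdh1 had 14.7, 18.7, 17.2 and 7.17. Within their own list both stood in the upper part in the first 3 groups and near the middle in WT mesoderm.

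The epithelial count moved with the processing. It was 8 with lists of equal length, 5 with the upper 50% of each list, 6 when no WT mesoderm peak was allowed within 5000 bp and 4 with peaks of at least 500 bp. It was 1, Krt18, when arid4b-delta endoderm peaks were also excluded. Spint2 stayed shared in 11 of the 12 alternatives run on promoters, and Krt18 in 6. Cldn6, Grhl2, Krt18 and Rab25 had a WT mesoderm peak within 5000 bp of the promoter window, and Grhl2 had one within 1000 bp.

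Pluripotency genes came next. Of 25 general pluripotency genes, 4 were shared, namely Tdgf1, L1td1, Lin28b and Utf1, and 20 were marked in arid4b-delta mesoderm, 18 in arid4b-delta endoderm, 16 in WT endoderm and 13 in WT mesoderm. Tdgf1 (gene ID 21667, chr9:110939608-110946158), the Nodal co-receptor Cripto, had folds of 10.7 in arid4b-delta mesoderm, 12.6 in arid4b-delta endoderm and 21.1 in WT endoderm and no WT mesoderm peak. Its peak was 1181 bp long in arid4b-delta mesoderm and 2008 bp in WT endoderm. L1td1, an RNA-binding protein of stem cells, had 12.1, 11.5 and 11.5. Lin28b, which blocks let-7 maturation, had 9.44, 11.3 and 9.47, and Utf1, a chromatin protein of embryonic stem cells, had 8.41, 11.8 and 4.87. All 4 were marked in the 3 lists other than WT mesoderm. Gdf3, Fgf4 and Myc were marked in arid4b-delta mesoderm and in neither WT list, and Foxd3 in WT endoderm and neither mesoderm list.

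Of 15 primed epiblast genes, 3 were shared: Fgf5, Otx2 and Grhl2. Fgf5 (chr5:98254184-98277033), a ligand that marks the epiblast after implantation, had folds of 12.1 in arid4b-delta mesoderm, 7.88 in arid4b-delta endoderm and 9.73 in WT endoderm. Otx2, a homeobox factor of the epiblast and anterior embryo, had 8.70, 6.56 and 6.70. Pou3f1, Pim2 and Sox3 of the same list were marked in arid4b-delta mesoderm and neither WT list, while Lef1 and Cdh2 were marked in WT mesoderm only. Of 15 naive pluripotency genes 1 was shared, Nanog, with folds of 8.65 in arid4b-delta mesoderm and 5.95 in WT endoderm, no arid4b-delta endoderm peak and no WT mesoderm peak. At Nanog the peaks of the 2 lists did not overlap each other. The core factors Pou5f1 and Sox2 were marked in all lists. Pou5f1 had 29.3 in arid4b-delta mesoderm, 15.03 in arid4b-delta endoderm, 10.997 in WT endoderm and 10.5 in WT mesoderm, and Sox2 had 9.60, 8.05, 7.03 and 7.76.

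**Figure D2:**
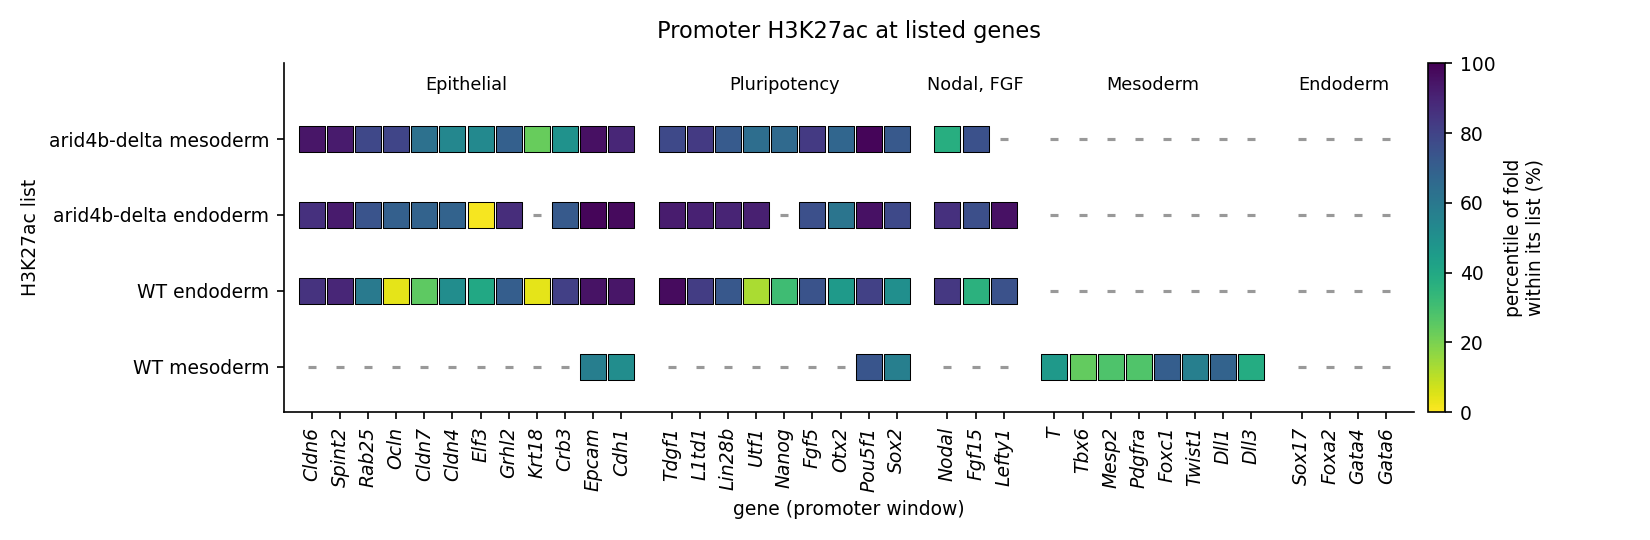
Promoter H3K27ac of listed genes in the 4 lists, given as the percentile of the gene's highest fold among all peaks of the same list (dark is high); a dash means no peak in the promoter window. The 10 epithelial and 7 pluripotency genes at the left of their blocks have squares in arid4b-delta mesoderm and WT endoderm and dashes in WT mesoderm, and the mesoderm genes have squares in WT mesoderm only.

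The signalling lists held from none to 2 shared promoters each, read against the same 2.2% of all promoters. Of 18 Nodal and TGF-beta genes 2 were shared, Tdgf1 and Nodal (11.1%). Nodal itself had folds of 6.35 in arid4b-delta mesoderm, 9.64 in arid4b-delta endoderm and 11.8 in WT endoderm. Lefty1, the secreted inhibitor of Nodal, had a promoter peak of fold 15.3 in arid4b-delta endoderm and 9.82 in WT endoderm, and in neither mesoderm list one. Of 19 FGF genes 2 were shared (10.5%), Fgf5 and the ligand Fgf15, which had 10.01, 7.89 and 6.15. None of 26 Wnt genes and none of 17 BMP genes was shared. Glycolysis had 2 of 21, the enzyme Tpi1 and the lactate carrier Slc16a3, neither with a peak in arid4b-delta endoderm, and the cell cycle list had 1 of 24, Mycl.

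In the lineage lists the counts were read against the 2.2% of all promoters that were shared, a share at which a count of none in lists of these sizes said little. Of 34 mesoderm genes none was shared, and 1 was marked in arid4b-delta mesoderm, none in arid4b-delta endoderm, none in WT endoderm and 5 in WT mesoderm. Of 24 primitive streak genes 1 was shared (4.17%), Nodal, while Cdx2, Mesp2, Tbx6 and T were marked in WT mesoderm only. T, the streak and mesoderm factor Brachyury, had a fold of 6.77 in WT mesoderm and no peak elsewhere. Of 26 endoderm genes 3 were shared (11.5%), Otx2, Krt18 and Cldn6, all of which also belong to the epithelial or epiblast lists, and Sox17, Foxa2, Gata4 and Gata6 had no peak anywhere. Mesp1 and Kdr, early mesoderm genes, also had none. No member was shared among 18 mesenchyme and EMT genes, 26 neuroectoderm genes, 13 extraembryonic endoderm genes, 13 trophoblast genes, 16 germline genes, 39 Hox genes, 31 Polycomb genes, 21 Sin3-HDAC genes or 20 housekeeping genes. Of the housekeeping genes 16 were marked in each of arid4b-delta mesoderm, WT endoderm and WT mesoderm.

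**Figure D3:**
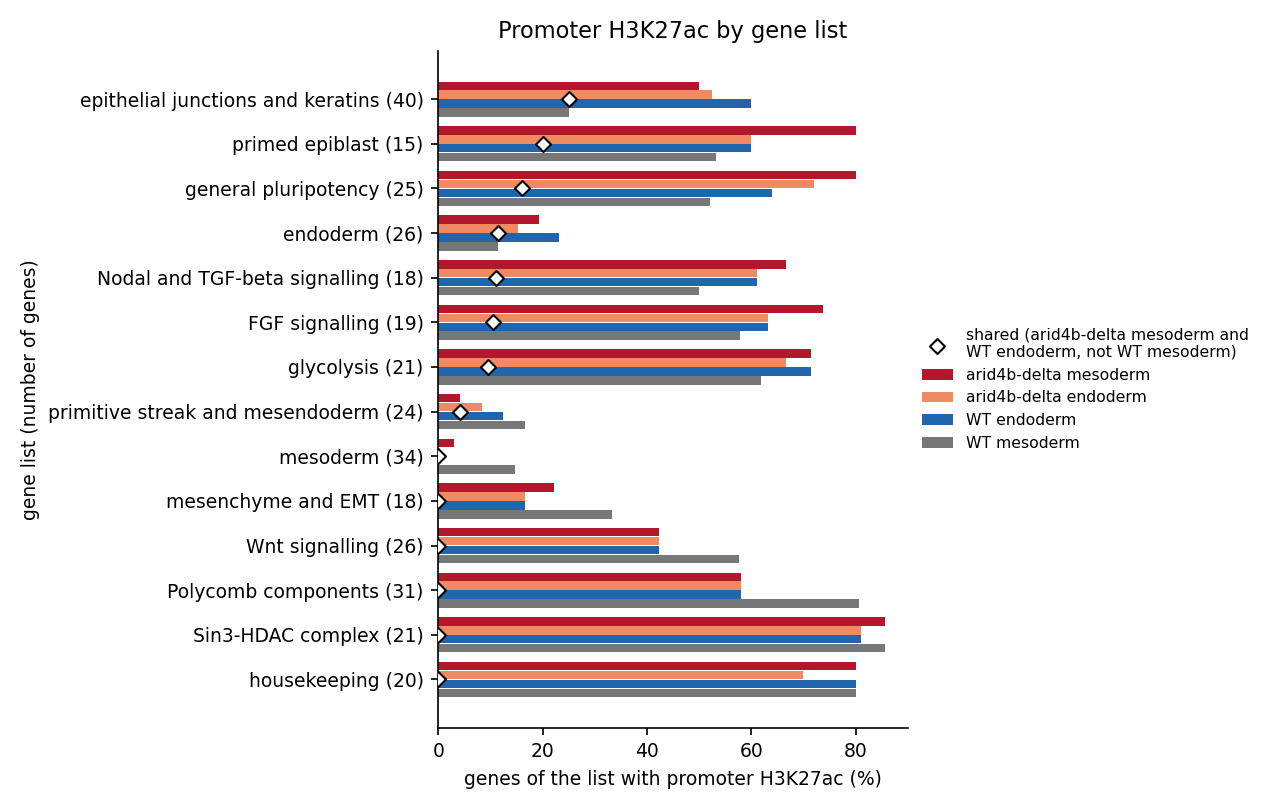
Percent of the genes of 14 of the 22 lists with promoter H3K27ac in each H3K27ac list (bars) and with a shared promoter (diamonds); the number of genes is in brackets. The diamond stands highest for the epithelial list, with 10 of 40 genes, and at 0 for the mesoderm, EMT, Wnt, Polycomb, Sin3-HDAC and housekeeping lists.

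Taking the 454 listed genes as one, 34 were gained in arid4b-delta mesoderm. Of these, 22 were shared with WT endoderm, where 39.4% of all gained promoters were, and 12 were marked in arid4b-delta mesoderm only. The genes were listed with earlier results of these data known, so this contrast is descriptive too. A further 9 listed genes were marked in WT endoderm and in neither mesoderm list. In the other direction, 35 were marked in WT mesoderm and not in arid4b-delta mesoderm, and 32 of these had no WT endoderm peak either, against 566 of 808 (70.05%) over all promoters. The 3 that WT endoderm kept were the Wnt receptor Fzd10, the BMP inhibitor Smad6 and the glycolytic enzyme Hk2. Fzd10 had no peak in arid4b-delta mesoderm and folds of 5.08 in arid4b-delta endoderm, 7.27 in WT endoderm and 8.61 in WT mesoderm. Those marked in WT mesoderm alone included Lef1 (13.3), Cdh2 (10.1), Foxc1 (9.76), Dll1 (9.41) and Mesp2 (5.57), which act in Wnt signalling (Lef1), mesenchymal adhesion (Cdh2), paraxial mesoderm (Foxc1 and Mesp2) and Notch signalling (Dll1).

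Over all genes, shared promoters with no WT mesoderm peak within 5000 bp were ranked by the lower of their fold percentiles in both lists, and predicted or unnamed genes, 2 of which ranked this high, were left out. The first 15 were led by Tmem154 (gene ID 320782, chr3:84666192-84704575), with folds of 23.5 in arid4b-delta mesoderm, 19.02 in arid4b-delta endoderm and 23.2 in WT endoderm. Its peak covered 1181 bp in arid4b-delta mesoderm and 929 bp in WT endoderm. The next were Frmd5 (19.3, 20.7 and 17.2), Spint2, Bcar3 (15.3, 8.75 and 13.9) and Foxr2 on chromosome X (19.6, 15.3 and 13.7). Frmd5 encodes a FERM domain protein, Bcar3 an adaptor of integrin signalling and Foxr2 a forkhead factor. Rhpn2 had 17.0, 21.7 and 12.6. Jmjd4 and Snap47 lie side by side and share one peak, with folds of 12.7, 8.93 and 14.6. The iron exporter gene Slc40a1 had 12.3, 11.8 and 16.7, and the tricellular junction gene Ildr1 12.5, 8.26 and 11.1. Tstd1 (13.2, 10.95 and 11.8), Def8 (11.7 and 10.6, with no arid4b-delta endoderm peak), Socs2 (11.95, 10.5 and 10.4) and the pluripotency genes L1td1 and Tdgf1 made up the rest. Of these 15 genes, Def8 alone lacked a peak in arid4b-delta endoderm.

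The H3K27ac list of arid4b-delta endoderm took no part in choosing the members and was read at all of them. It marked 279 of the 481 shared promoters, 58.0% (53.5 to 62.5), against 26.8% of all promoters. It marked 25.9% of promoters found in arid4b-delta mesoderm only, 23.3% of those in WT endoderm only, 90.2% of those in all 3 lists and 13.3% of those in WT mesoderm only. For shared distal peaks the share was 77.0% (75.2 to 78.8), against 59.4% for arid4b-delta mesoderm only, 25.4% for WT endoderm only, 86.0% for all 3 and 6.57% for WT mesoderm only. The arid4b-delta endoderm list was the longest of the 4 at distal regions, with 26716 distal peaks. That left 202 shared promoters and 496 shared distal peaks that arid4b-delta endoderm lacked as well as WT mesoderm. Of the 22 listed genes, 4 were among these 202: Krt18, Nanog, Tpi1 and Slc16a3.

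H3K4me3, the mark of active and poised promoters, was read at the 394 shared promoters with an annotated RefSeq start. It lay on 96.4% in arid4b-delta mesoderm (94.1 to 98.0), 96.2% in arid4b-delta endoderm, 91.4% in WT endoderm and 90.9% in WT mesoderm (87.6 to 93.5). Over all 17492 promoters with such a start the shares were 61.6%, 60.7%, 56.2% and 58.55% in the same order. At 22 of the 394 promoters (5.58%) H3K4me3 was listed in arid4b-delta mesoderm and not in WT mesoderm, against 3.11% of all, and at none in WT mesoderm and not in arid4b-delta mesoderm, against 0.0972% of all. Most shared promoters thus carried H3K4me3 in WT mesoderm, where they had no H3K27ac. This was not particular to them. H3K4me3 lay in WT mesoderm on 93.3% of promoters with H3K27ac in arid4b-delta mesoderm only and 92.2% of those in WT endoderm only. Over all promoters without H3K27ac in WT mesoderm 40.02% carried H3K4me3 there. Among the 22 listed shared genes, all had H3K4me3 in both arid4b-delta lists, 19 in WT endoderm and 17 in WT mesoderm. Grhl2 and Fgf15 among them had no RefSeq start. Their promoters were placed with the help of H3K4me3, so their H3K4me3 is not an independent reading. Cldn4, Elf3 and Rab25 had H3K4me3 in neither WT list, and Tdgf1 and Nanog lacked it in WT mesoderm alone. Rab25 had an H3K4me3 fold of 7.86 in arid4b-delta mesoderm and 5.61 in arid4b-delta endoderm.

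H3K27me3, the mark of Polycomb repression, lay on a smaller share of the shared promoters than of all promoters, at 7.48% in arid4b-delta mesoderm, 5.82% in arid4b-delta endoderm, 6.03% in WT endoderm and 5.41% in WT mesoderm (3.56 to 7.82). Over all promoters the shares were 15.99%, 16.8%, 14.2% and 9.23% in the same order. At 23 shared promoters (4.78%) H3K27me3 was listed in arid4b-delta mesoderm and not in WT mesoderm, against 7.36% of all promoters. At 13 (2.70%) it was listed in WT mesoderm and not in arid4b-delta mesoderm, against 0.608% of all. Among the listed shared genes 5 of 22 carried it in arid4b-delta mesoderm, 1 in arid4b-delta endoderm, 3 in WT endoderm and 8 in WT mesoderm, where they were Cldn6, Cldn7, Fgf15, Fgf5, Grhl2, Nodal, Ocln and Utf1. Of the promoters marked by H3K27ac in WT mesoderm only, 20.8% had H3K27me3 in arid4b-delta mesoderm, 20.8% in arid4b-delta endoderm, 19.08% in WT endoderm and 6.36% in WT mesoderm. Promoters of arid4b-delta mesoderm only had 14.7%, 13.1%, 13.4% and 7.02% in the same order, and those of WT endoderm only 10.1%, 9.73%, 6.23% and 5.84%. Shares above those of the shared promoters were thus not particular to the WT mesoderm class. Both marks sit on lysine 27 and the classes were chosen by H3K27ac, so these shares are not independent of that choice. Of the 35 listed genes marked in WT mesoderm and not in arid4b-delta mesoderm, 27 had H3K27me3 in arid4b-delta mesoderm, 28 in arid4b-delta endoderm, 25 in WT endoderm and 11 in WT mesoderm.

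At shared distal peaks H3K4me3 lay on 16.4% in arid4b-delta mesoderm, 14.5% in arid4b-delta endoderm, 5.47% in WT endoderm and 5.37% in WT mesoderm, and whether these regions are starts that the gene table lacks was not tested. H3K27me3 lay on 0.741%, 1.39%, 0.787% and 0.556% in the same order. Distal peaks in all 3 H3K27ac lists carried H3K4me3 far more often, at 59.7%, 54.8%, 41.2% and 41.2%. Those of arid4b-delta mesoderm only carried H3K4me3 at 21.8%, 14.4%, 3.02% and 2.68%, and those of WT endoderm only at 10.4%, 8.71%, 4.81% and 5.31%. Higher H3K4me3 shares in the arid4b-delta lists than in the WT lists were thus not particular to the shared distal peaks.

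**Figure D4:**
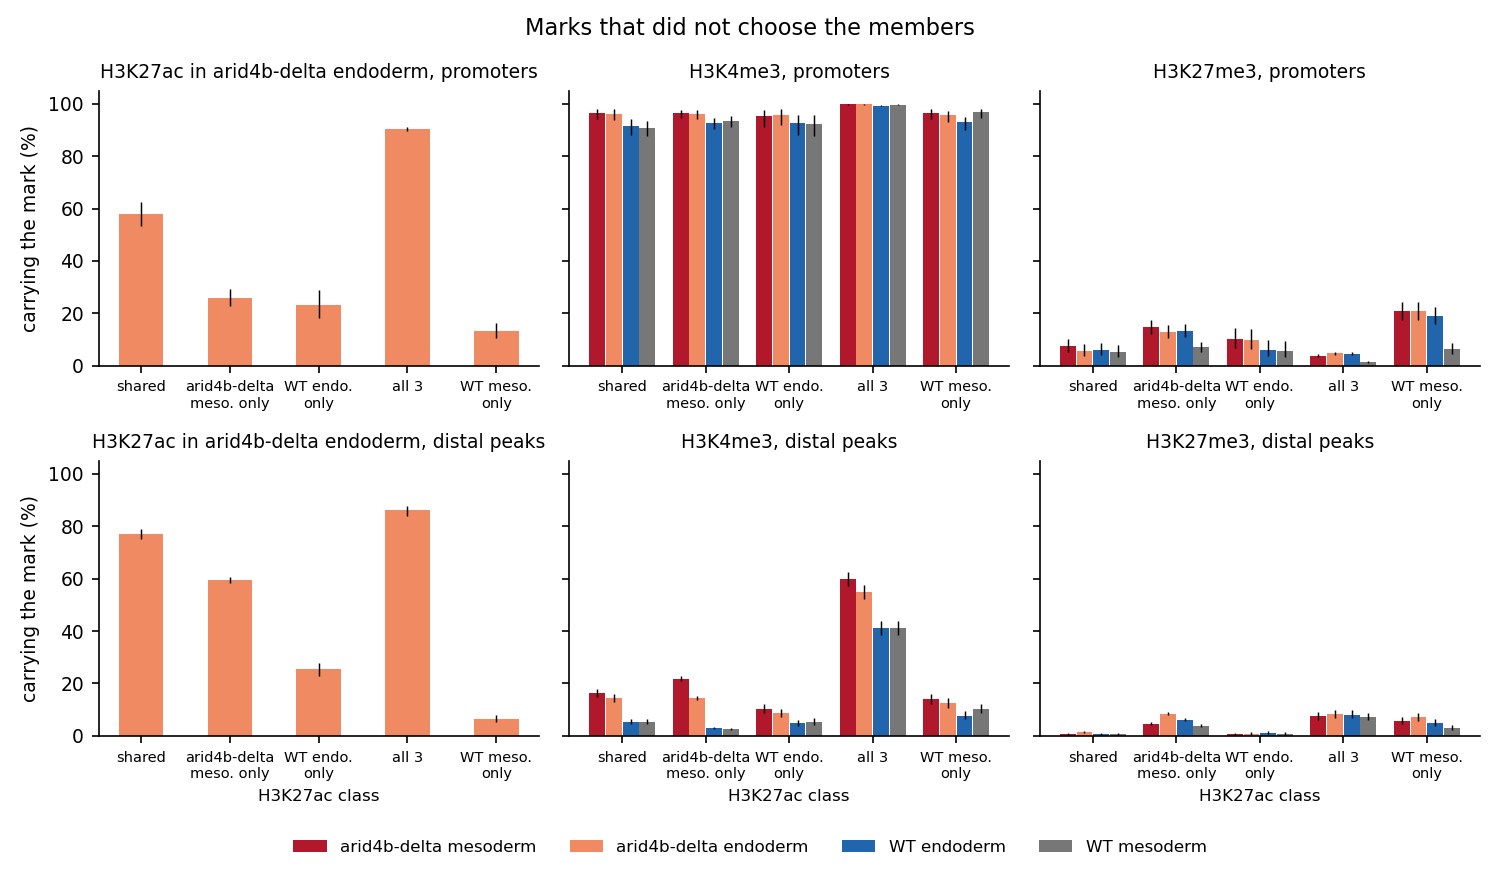
Percent of promoters (top) and distal peaks (bottom) of each H3K27ac class that carried H3K27ac in arid4b-delta endoderm, H3K4me3 and H3K27me3, with exact 95% intervals; colours are the 4 groups. Shared promoters reach 58.0% for H3K27ac in arid4b-delta endoderm and shared distal peaks 77.0%, and in the 3 groups other than WT mesoderm H3K27me3 is highest on promoters marked in WT mesoderm only.

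The shared distal peaks lay at a median of 47982 bp from the nearest promoter of a gene that is neither predicted nor unnamed, against 79997.5 bp for peaks of arid4b-delta mesoderm only and 30485 bp for those in all 3 lists. A shared distal peak lay within 50000 bp of 1540 of all 21887 promoters (7.04%). For shared promoters that share was 9.56% (7.09 to 12.6), for promoters of arid4b-delta mesoderm only 9.58%, for those in all 3 lists 8.96% and for those in WT mesoderm only 4.06% (2.59 to 6.04). The shared promoters did not have more shared distal neighbours than the promoters marked in arid4b-delta mesoderm only.

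Among the gene lists, Nodal and TGF-beta signalling had shared distal peaks near 6 of its 18 genes, against the 7.04% of all promoters. Among them were Lefty1, Lefty2, Smad7, Acvr1b and Skil. Primed epiblast had 4 of 15, FGF signalling 4 of 19, general pluripotency 5 of 25, Wnt signalling 5 of 26 and epithelial junctions 5 of 40. Mesoderm had 1 of 34, and mesenchyme and EMT (18 genes) and Hox genes (39) had none. Genes that lie together count the same peaks, as Lefty1 and Lefty2 do.

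The Lefty locus on chromosome 1 held 5 shared distal peaks within 50000 bp of Lefty1 and Lefty2 and no distal WT mesoderm peak. Lefty1 and Lefty2 encode secreted inhibitors of Nodal and are themselves targets of Nodal signalling. The strongest pair lay 3333 and 4400 bp outside the lower-coordinate end of Lefty2. The first, chr1:180888846-180889775, had a fold of 18.3 in arid4b-delta mesoderm, 20.5 in arid4b-delta endoderm and 30.8 in WT endoderm. The second, chr1:180888182-180888708, had 19.11, 23.1 and 15.6. Another pair between the 2 genes, chr1:180924368-180924837 and chr1:180925034-180925510, had folds of 9.44 and 7.64 in arid4b-delta mesoderm. In arid4b-delta endoderm the pair had 8.26 and 8.47, against 14.9 and 11.9 in WT endoderm. The Lefty1 promoter itself, marked in arid4b-delta endoderm and WT endoderm, had no H3K27ac peak in arid4b-delta mesoderm, and the Lefty2 ends had none in any list.

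**Figure D5:**
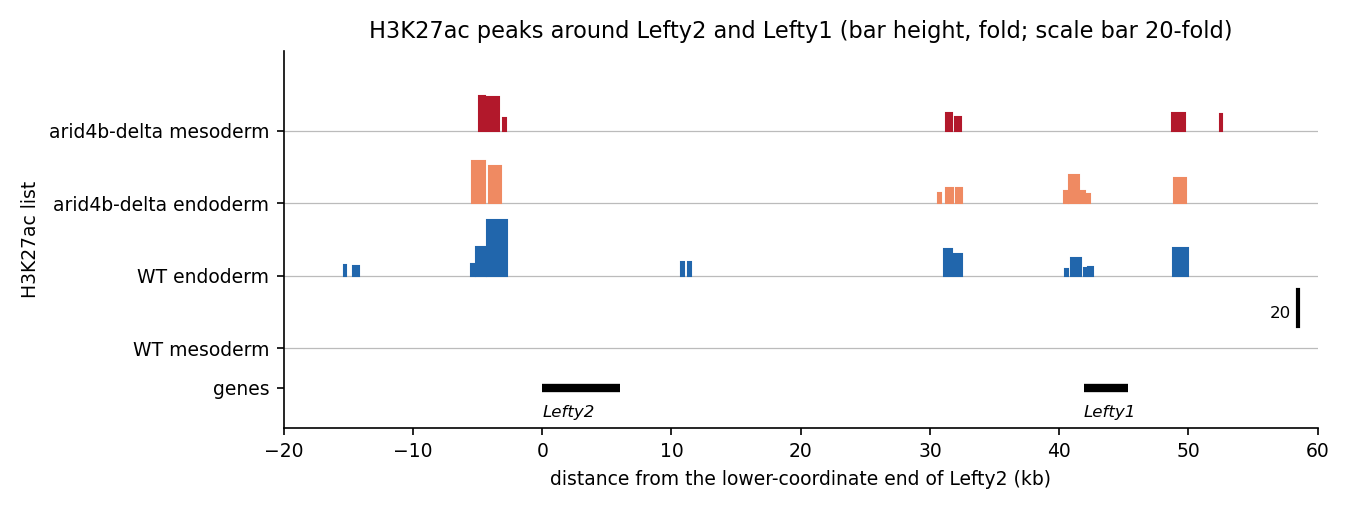
H3K27ac peaks of the 4 lists around Lefty2 and Lefty1 by distance from the lower-coordinate end of Lefty2; bar height is the authors' fold, on one scale for all rows, and black bars are the bodies of these genes. Peaks outside Lefty2 and between the 2 genes stand in arid4b-delta mesoderm, arid4b-delta endoderm and WT endoderm, the cluster at the Lefty1 promoter is missing in arid4b-delta mesoderm, and the WT mesoderm row is empty.

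The strongest shared distal peak with no WT mesoderm peak within 5000 bp was chr17:32210743-32212329, 21273 bp from the promoter of Ephx3, with folds of 19.6 in arid4b-delta mesoderm, 36.3 in arid4b-delta endoderm and 37.3 in WT endoderm. Next came a peak 38030 bp from Zfp831 (19.03, 11.8 and 19.8), a peak 139001 bp from Vrk1 and a peak 63312 bp from Erv3 (18.4, 26.1 and 19.98). The others of the first 10 lay near Lefty2, where the pair given above stood, Armc1, Vrk1 again, Ube2q1 and Hhla1. All 10 were also in the arid4b-delta endoderm list. The nearest promoter is a position and does not say which gene a region serves.

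By number of shared distal peaks within 50000 bp, Unc5b, a netrin receptor gene, had most, with 6 of its 12 distal arid4b-delta mesoderm peaks shared and 5 distal WT mesoderm peaks near it. The Lefty genes, the olfactory receptor genes Olfr1271 and Olfr1272, and Psg22 had 5 each, and Zfp831, Sbk1 and Lemd1 had 4 each. At Zfp831 all 4 of its distal arid4b-delta mesoderm peaks were shared and WT mesoderm had none. The FGF ligand gene Fgf4 had 1 shared distal peak 3523 bp away, chr7:144856696-144857863, with folds of 25.8 in arid4b-delta mesoderm, 14.1 in arid4b-delta endoderm and 10.9 in WT endoderm, although its promoter was marked in arid4b-delta mesoderm only. At Utf1, 3 shared distal peaks lay 5620 to 6520 bp from the start, beside its shared promoter. Fgf5 had 2 shared distal peaks, the stronger 38647 bp from its start with folds of 10.4, 10.8 and 7.37. Pou3f1 had 4, of which the one 10228 bp away, ranked first by the lower of its percentiles in both lists, had 10.9, 12.8 and 11.2. WT mesoderm had no distal peak within 50000 bp of Fgf4, Utf1 or Fgf5 and 1 near Pou3f1.

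Shared promoters lay on every chromosome except Y, from 5 on chromosome 18 to 46 on chromosome 7. Shared distal peaks made up between 15.7% (chromosome X) and 25.99% (chromosome 11) of the gained distal peaks on chromosomes 1 to 19 and X, and 8.23% on Y, where 13 of 158 were shared.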

How the data were processed

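The submitters' processing notes name Bowtie2, Picard, MACS2 and build mm10; versions and settings are not given in the sources used here. The deposited lists hold 1 peak per row, called in each library separately, narrow for H3K27ac and H3K4me3 and broad for H3K27me3. The deposited columns are a peak score, the authors' fold enrichment (a ratio), −log10 p and −log10 q values, and for narrow peaks the authors' summit position. Only positions and fold were used, with −log10 q ranking peaks of equal fold. Of 16 samples, 12 ChIP libraries had a list, and the 4 inputs were not used.

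Peaks on chromosomes 1 to 19, X and Y were joined to 21887 protein-coding genes of a RefSeq table of GRCm38.p6, which is mm10. Starts came from RefSeq promoter sequences for 17492 genes, from the gene end with more H3K4me3 for 2646 and from both ends for 1749. H3K4me3 shares at promoters therefore cover only genes with RefSeq starts, except for the counts among listed genes. No exon or UTR annotation was used. Overlap meant at least 1 bp. Where a gene had several peaks, the highest fold is given.

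Members and the 22 gene lists (501 entries, all matched, 454 genes) were chosen with earlier results of these data known. No test compared groups, each being a single library; intervals on shares are exact Clopper-Pearson at 95%, which cover counting error only, and no depth is known from a peak list. Genes were named by rule: listed genes with a shared promoter (up to 30), the 15 strongest shared promoters and the 10 strongest shared distal peaks with no WT mesoderm peak within 5000 bp, ranked by the lower of their fold percentiles in both lists, the 10 genes with most shared distal peaks within 50000 bp, fixed markers, and up to 10 listed genes that arid4b-delta mesoderm lacked. Other listed genes, among them those with distal peaks such as Fgf4 and Pou3f1, were named after their values were seen, and the Grainyhead motif was added then. The alternatives were lists of equal length, the upper 50% of lists, other promoter windows, stricter absence, stricter or looser overlap, longer peaks, distal beyond 5000 bp and chromosomes 1 to 19. Added once the data had been seen were other gene starts, absence from arid4b-delta endoderm, and the count of WT endoderm members found in 1 mesoderm list alone. A few genes are not reported here. Scripts (Python 3.11.15, numpy 2.4.6, pandas 2.3.3, scipy 1.17.1) were tested on simulated peaks.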

Additional observations from a re-analysis of the deposited data

How the results depend on the processing

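With lists matched in length there were 265 shared promoters (46.2% of gained promoters) and 1352 shared distal peaks (34.3% of gained ones). With the upper 50% of each list the shares were 33.1% and 25.4%, with 981 distal peaks; 447 promoters were shared, of which 121 were among the 481. With the upper 50% of arid4b-delta mesoderm and WT endoderm against the full WT mesoderm list there were 121 promoters (23.6%), 10 listed genes and 678 distal peaks. Peaks of at least 500 bp gave 167 promoters (26.7%), of which 24 were among the 481, and 514 distal peaks (31.3%). Requiring no WT mesoderm peak within 1000 bp gave a distal share of 19.9%, and within 5000 bp one of 19.6% and 14 listed genes. A distal peak covered to 50% gave 14.6%, and peaks within 1000 bp counted as overlapping gave 30.3%. Absence from arid4b-delta endoderm as well left 202 promoters, 4 listed genes and 496 distal peaks.

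WT endoderm promoters in arid4b-delta mesoderm alone numbered 1.99 per 1 in WT mesoderm alone, but 0.403 with lists matched in length, which turns the order, and 1.16 with peaks of at least 500 bp. For WT endoderm distal peaks the ratio was 13.5, and 5.63 with lists matched in total length, which does not match their numbers of distal peaks. The cause was not tested. Windows of 500 bp (462 promoters) and 2500 bp (531), chromosomes 1 to 19 (468), distal beyond 5000 bp (1959 peaks), H3K4me3-based gene ends (466) and genes with RefSeq starts only (394) kept the counts within 1.5 times. The mesoderm list had 0 shared promoters under all of the alternatives run on promoters. No paired analysis was possible because each group had 1 library per mark. Absence from a list is a peak not called at an unknown depth, and is not absence of the mark.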

Other observations

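The Polycomb list of 31 genes held 18 promoters marked by H3K27ac in arid4b-delta mesoderm, 18 in arid4b-delta endoderm and 18 in WT endoderm, against 25 in WT mesoderm. Bmi1, Phc2, Pcgf1, Epop, Cbx8 and Yaf2 were among those marked in WT mesoderm and in neither arid4b-delta mesoderm nor WT endoderm. The share of promoters with this pattern over all genes was 2.59%. Bmi1, a core subunit of Polycomb repressive complex 1, had a fold of 9.03 in WT mesoderm and no H3K27ac peak in the other 3 lists.

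The Sin3-HDAC list, to which Arid4b belongs, held 18 of 21 marked promoters in arid4b-delta mesoderm, 17 in arid4b-delta endoderm, 17 in WT endoderm and 18 in WT mesoderm, and 17 of its genes were marked in arid4b-delta mesoderm, WT endoderm and WT mesoderm alike.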
